A study of Mus musculus with 8 samples.

Results

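The thrombospondins and other matricellular genes were followed in lung endothelial cells (ECs) of neonatal mice exposed to hyperoxia. The set was the 10 genes *Ecm1*, *Thbs1*, *Thbs2*, *Thbs3*, *Thbs4*, *Comp*, *Postn*, *Tnc*, *Spp1* and *Vtn*, taken by symbol from a count table of 54532 genes. *Ecm1* was chosen by its CPM values (counts scaled to a common library total) in these libraries, which rose evenly in hyperoxia, so its values are given as a description with no test. The other genes were taken by family and kind, with earlier results of these data known. Bulk RNA-seq was run on ECs of wild-type C57BL/6J pups at postnatal day 14, with 4 libraries of pups reared in room air (normoxia, 21% O2) and 4 of pups reared in 80% O2 (hyperoxia) from day 0. Both groups had the same genotype and age, and neither received another agent. The cells were what remained of a lung suspension after removal of CD45-positive cells and bound to CD31-coated beads, so RNA of other lung cells carried along was counted too. How many pups gave each library was not given in the sources used here, and the p-values measure the spread between these libraries.

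Matricellular proteins are secreted into the extracellular matrix, where they act on cells more than they build structure. They bind integrins and other receptors, proteases and growth factors, and several are raised during development, injury and remodelling. Thrombospondin-1 inhibits angiogenesis through its receptor CD36 on ECs and can activate latent TGF-beta. Periostin and tenascin-C are made mainly by mesenchymal cells, and tenascin-C is strongly expressed in the growing lung. Osteopontin, the product of *Spp1*, is made by macrophages, epithelial cells and others.

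Total counts ran from 16098086 to 18300730 per library. The summed CPM of 10 pan-endothelial markers was 15396 to 16413 in normoxia and 14920 to 15750 in hyperoxia, so it was similar in both groups. Single markers moved within this sum, with 3 past the threshold and higher and 4 lower. Hyperoxia 3 differed from the rest of its group and is shown separately in the plots. On the first principal component, which held 57.8% of the variance, it lay at 20.2, against 40.2 to 42.9 for hyperoxia 1, 2 and 4 and -43.8 to -28.2 for normoxia. All 6 alveolar type 1 (AT1) markers, all 8 alveolar type 2 (AT2) markers, 5 of 7 tested fibroblast markers and 6 of 7 tested mural and smooth muscle markers were past the threshold and higher in hyperoxia. Over all genes tested, 18.5% were past the threshold and higher. Summed AT2 markers went from a mean of 278.0 CPM in normoxia to 1826 in hyperoxia, and summed AT1 markers from 82.2 to 356.0. The groups thus did not hold equal amounts of epithelial marker RNA. The share of mitochondrial counts was 0.864 to 1.05% in normoxia and 1.21 to 1.43% in hyperoxia, and its part in the results was not tested. Of all markers, *Upk3b* (mesothelial) was the one without a count in a whole group, in hyperoxia. It had only 3 counts over all libraries and was at 0 in 6 of them.

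Promoter sequence is shown for 3 members that rose in different ways across the libraries, *Ecm1* evenly, *Thbs3* in all but 1 hyperoxia library and *Postn* with overlapping groups. RefSeq promoter windows on GRCm38.p6 were found for 8 of the 10 members, all but *Thbs1* and *Comp*. Each line holds the 250 bases before the transcript start, 5′ to 3′ in the direction of the gene, and capitals mark an AP-1 motif (TGANTCA) or a TATA box (TATAAA) on either strand. The positions are chr3:95739570-95739819 on the minus strand for *Ecm1*, chr3:89214930-89215179 on the plus strand for *Thbs3* and chr3:54360857-54361106 on the plus strand for *Postn*.
Ecm1: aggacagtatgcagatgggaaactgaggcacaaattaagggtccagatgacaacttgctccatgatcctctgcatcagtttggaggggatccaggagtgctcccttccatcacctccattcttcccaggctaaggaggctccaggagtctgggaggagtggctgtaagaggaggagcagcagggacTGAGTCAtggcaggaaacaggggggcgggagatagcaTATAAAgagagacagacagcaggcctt
Thbs3: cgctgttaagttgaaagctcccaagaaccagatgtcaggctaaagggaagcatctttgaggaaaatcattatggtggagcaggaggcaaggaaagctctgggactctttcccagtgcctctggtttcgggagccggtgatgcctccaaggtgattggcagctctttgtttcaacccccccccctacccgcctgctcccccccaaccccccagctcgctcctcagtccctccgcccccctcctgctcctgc
Postn: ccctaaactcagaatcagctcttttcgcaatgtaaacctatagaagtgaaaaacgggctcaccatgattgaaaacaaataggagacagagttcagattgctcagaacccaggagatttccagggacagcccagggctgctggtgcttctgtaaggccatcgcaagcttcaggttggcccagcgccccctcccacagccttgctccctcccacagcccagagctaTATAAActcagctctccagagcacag
The *Ecm1* window held TGAGTCA from position -64 and TATAAA from position -27, counted from the transcript start. The AP-1 motif reads the same on both strands and was counted as 1 site, and it was found in no window of the other 7 members. This motif was present in 7.81% of the 32851 mouse windows of 300 bases (250 before and 50 after the start). The *Ecm1* window also held a GC box (GGGCGG) from position -42. *Postn* held TATAAA from position -26 in the window shown. A second *Postn* window of 300 bases, chr3:54359017-54359316, held no TATAAA and a CCAAT box on the opposite strand at position 25. *Thbs3* held neither AP-1 nor a TATA box, and TATAAA was present in 13.6% of all windows. *Thbs3* held a GC box on the opposite strand from position -21 and a CCAAT box on the opposite strand from position -98, which were present in 35.7% and 37.4% of all windows. These matches describe letters in a window and were not tied to any difference between the libraries.

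Most members that were expressed at more than a few counts were higher in hyperoxia. Of the 10 genes, 8 passed the filter on low counts, and *Comp* and *Vtn* did not. Apart from *Ecm1*, whose rise chose it, 5 of the 7 tested were called higher in hyperoxia (*Thbs1*, *Thbs3*, *Postn*, *Tnc* and *Spp1*) at an adjusted p under 0.05 and a log2 fold change of at least 1 in edgeR's quasi-likelihood test, and none was lower. Over all 15564 genes tested, 5.62% were called higher by this rule, 1.36% lower and 6.98% in either direction. Without the fold threshold, 35.6% of all genes were past the adjusted p (18.5% higher and 17.1% lower), and the same 5 of these 7 members were. The median log2 fold change of the 7 was 1.57, against -0.00400 for all genes. Since the members were chosen with results known, these counts describe the set and are no test of it. In 3 of the 7 the libraries of both groups did not overlap (*Thbs1*, *Thbs3* and *Tnc*), as in 35.4% of all genes. Bulk libraries cannot tell a change in RNA per cell from a change in the number of cells of a type.

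**Figure D1:**
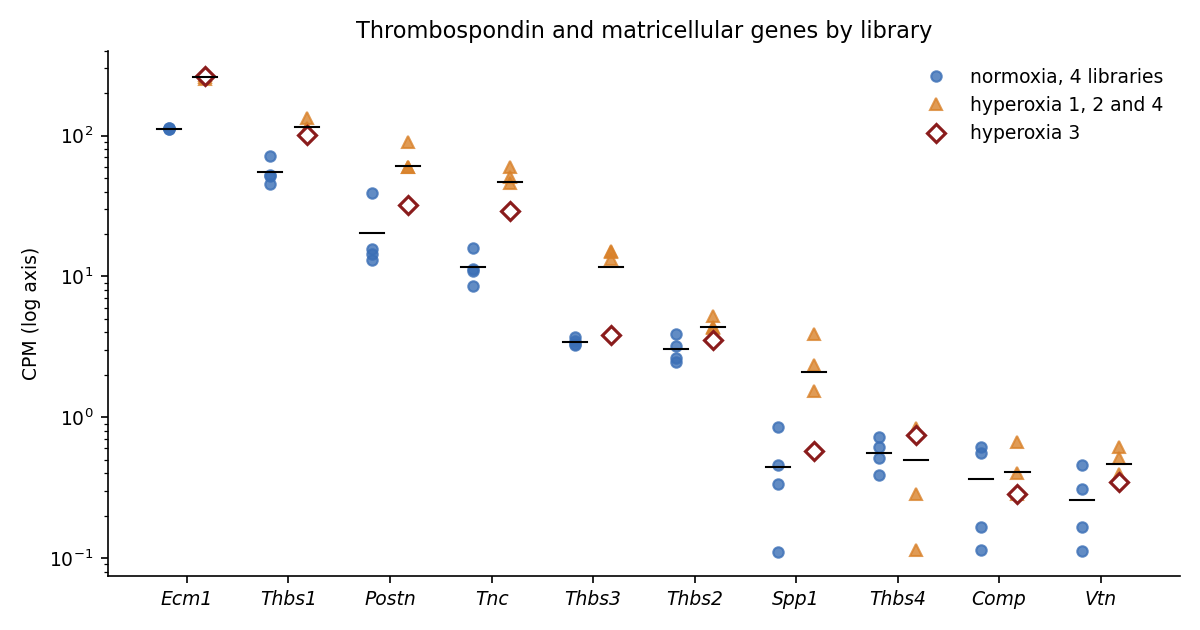
CPM of each member (log axis) in every library, with circles for normoxia, triangles for hyperoxia 1, 2 and 4, an open diamond for hyperoxia 3 and short lines for group means. Hyperoxia 3 sits with the other hyperoxia libraries for *Ecm1* (264.2 CPM) and just above the normoxia libraries for *Thbs3* (3.84 CPM).

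*Ecm1* encodes extracellular matrix protein 1, a secreted glycoprotein that binds perlecan, fibulins and the protease MMP9. The gene (ENSMUSG00000028108) lies on the minus strand of chr3:95734147-95739569 in GRCm38. It had the most RNA per length of the 10 genes in both groups. Its normoxia libraries 1 to 4 had 111.0, 111.4, 112.4 and 113.1 CPM. Its hyperoxia libraries 1 to 4 had 251.9, 262.3, 264.2 and 271.3 CPM. Both groups were tight and far apart, and hyperoxia 3 was among the others. This gave a log2 fold change of 1.23 (SE 0.0404) and a ratio of means of 2.34. The coefficient of variation (CV) was 0.853% in normoxia and 3.06% in hyperoxia. Counting alone gives a CV of about 2.26% at the mean count of 1957 in normoxia and 1.47% at the mean of 4638 in hyperoxia. The normoxia spread was thus below what counting gives on average. Among the CVs of all tested genes, *Ecm1* was at percentile 0.173 in normoxia and 10.8 in hyperoxia. The gene was chosen for its even rise, so these ranks restate the choice.

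The genes most like *Ecm1* across the 8 libraries were *Slc12a2*, *Rnf169* and *Ampd3*. Likeness was the root mean square difference in log2 CPM, each gene centred on its normoxia mean, among 9076 protein-coding genes of at least 10 mean CPM. *Slc12a2*, a sodium, potassium and chloride cotransporter, differed from *Ecm1* by 0.0490 and went from 89.7 ± 2.49 to 210.5 ± 13.8 CPM (SD, n = 4). *Rnf169*, a ubiquitin ligase family member of the DNA break response, differed by 0.0594, and *Ampd3*, an AMP deaminase, by 0.0732. The upstream neighbour in the genome, *Tars2* (mitochondrial threonyl-tRNA synthetase), lies 406 bases away on the same strand. It had 27.8 ± 3.02 CPM in normoxia and 28.1 ± 2.32 in hyperoxia (SD, n = 4, adjusted p = 0.916). *Mir7014* shares 2.50% of the *Ecm1* exon bases on the same strand.

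*Thbs1* encodes thrombospondin-1 and is on the plus strand of chr2:118111876-118127133 (ENSMUSG00000040152). It was the most abundant thrombospondin and rose with hyperoxia. Normoxia libraries 1 to 4 had 52.5, 51.9, 71.3 and 45.6 CPM. Hyperoxia libraries 1 to 4 had 132, 114, 101 and 112 CPM. The groups did not overlap, normoxia 3 was the highest of its group and hyperoxia 3 the lowest of its own. On the log2 scale the difference was 1.05 with an SE of 0.127, at an adjusted p of 0.000118. It stayed past the adjusted p without any 1 library, but its fold fell under the threshold without normoxia 4 (0.97) or without hyperoxia 1 (0.98). The antisense gene *Gm29233* shares 3.42% of its exon bases and had 0 counts. Platelets also carry thrombospondin-1, and 1 of 6 platelet markers was past the threshold, with summed levels of 23.3 to 32.3 CPM in normoxia and 29.7 to 42.4 in hyperoxia. Summed macrophage and monocyte markers were 168.2 to 325.1 CPM in normoxia and 218.7 to 504.6 in hyperoxia. Most of the rise in the macrophage sum was that of *Lyz2*, from 77.3 to 225.0 CPM. The order of normoxia libraries was 3, 1, 2, 4 for *Thbs1* and the macrophage sum and 3, 2, 4, 1 for the platelet sum. In hyperoxia the order of *Thbs1* (1, 2, 4, 3) was that of the AT1, AT2 and mesothelial sums. It was 1, 4, 2, 3 for the macrophage sum and 4, 1, 2, 3 for the platelet sum. The part of any of these lists in the rise of *Thbs1* was not tested.

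*Thbs2* encodes thrombospondin-2, the close relative of thrombospondin-1 that also inhibits angiogenesis, and did not pass the threshold. It had 2.45 to 3.92 CPM in normoxia and 3.55 to 5.27 in hyperoxia, and the ranges overlapped. The log2 fold change was 0.52 (SE 0.192, 95% interval 0.0923 to 0.942, adjusted p = 0.0578). It passed the threshold without normoxia 3 (adjusted p = 0.0246) or without hyperoxia 3 (adjusted p = 0.0408).

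*Thbs3* encodes thrombospondin-3, which belongs to the pentameric thrombospondins that lack the type 1 repeats of thrombospondin-1. It is on the plus strand of chr3:89215180-89226837 (ENSMUSG00000028047). Normoxia libraries 1 to 4 had 3.31, 3.70, 3.24 and 3.48 CPM. Hyperoxia libraries 1 to 4 had 14.8, 15.1, 3.84 and 13.2 CPM. Hyperoxia 3 lay just above the highest normoxia library, while the other hyperoxia libraries were several times higher. The log2 fold change was 1.77 (SE 0.351, adjusted p = 0.0027) with all libraries and 2.06 (adjusted p = 1.15e-06) without hyperoxia 3. AT1 markers summed to 156.8 CPM in hyperoxia 3, against 401.5 to 448.7 in the other hyperoxia libraries and 76.0 to 93.6 in normoxia, so they too were low there, though higher than in normoxia. The AT2, pan-epithelial, fibroblast and mural sums were also lowest of the hyperoxia group in library 3. So was the sum of aerocyte capillary markers, an EC list, at 2200 CPM against 2433 to 2627 in the others. The part of any of these lists in the result for *Thbs3* was not tested.

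The surroundings of *Thbs3* differed between the groups as well. *Mtx1*, the antisense gene for a mitochondrial import protein, shares 6.59% of the *Thbs3* exon bases and was 16.8 ± 1.76 CPM in normoxia and 20.9 ± 0.947 in hyperoxia (SD, n = 4, adjusted p = 0.0143), with 21.4 CPM in hyperoxia 3. *Muc1*, an epithelial mucin gene on the same strand, starts 2219 bases beyond the end of *Thbs3* and was looked up after the values of *Thbs3* were seen. It rose from 2.11 ± 0.335 to 18.7 ± 7.42 CPM (SD, n = 4, log2 fold change 3.14, adjusted p = 4.33e-05). In hyperoxia 3 *Muc1* had 7.90 CPM, against 19.97 to 23.7 in the other hyperoxia libraries, and so was also lowest there.

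*Thbs4* and *Comp*, which encode thrombospondin-4 and cartilage oligomeric matrix protein, were near the limit of detection. *Thbs4* had 7 to 13 counts in normoxia libraries and 2 to 15 in hyperoxia libraries. Its log2 fold change was -0.17 (SE 0.508, 95% interval -1.30 to 0.949, adjusted p = 0.82), and it turned to 0.15 without hyperoxia 1 and to 0.02 without hyperoxia 2. *Comp* had 2 to 10 counts in normoxia and 5 to 12 in hyperoxia (two-sided exact permutation p = 0.771, where the smallest possible is 0.0286). No difference was detected in either gene.

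Per length, *Thbs1* made up most of the thrombospondin RNA in both groups. Its share of the summed FPKM (counts corrected for both the length of a gene and the depth of a library) of the 5 thrombospondin genes was 84.9 to 87.7% in normoxia libraries and 82.3 to 91.1% in hyperoxia libraries. The share of *Thbs3* was 5.03 to 8.22% in normoxia and 4.36 to 13.8% in hyperoxia, and the shares of both genes overlapped between the groups. The share of *Thbs2* was 3.55 to 4.46% in normoxia and 2.41 to 3.36% in hyperoxia, and that of *Thbs4* was 1.34 to 1.83% and 0.135 to 1.24%, both lower in hyperoxia without overlap. These are shares of a sum that was itself higher in hyperoxia, and not levels. The FPKM of *Thbs2* was 0.344 to 0.556 in normoxia and 0.505 to 0.747 in hyperoxia. That of *Thbs4*, a gene of few counts, was 0.117 to 0.220 and 0.0344 to 0.251, and both genes overlapped. *Comp* made up 0.389 to 2.03% in normoxia and 0.422 to 1.002% in hyperoxia.

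*Tnc* encodes tenascin-C, a hexameric glycoprotein, and is on the minus strand of chr4:63959785-64047015 (ENSMUSG00000028364). It had the largest rise of the members whose groups did not overlap. Normoxia libraries 1 to 4 had 15.9, 11.2, 10.9 and 8.56 CPM. Hyperoxia libraries 1 to 4 had 45.9, 59.7, 29.2 and 51.1 CPM. Even hyperoxia 3, the lowest of its group, lay above all normoxia libraries, and normoxia 1 was the highest of its own. The log2 fold change was 2.004 (SE 0.224, adjusted p = 6.89e-05). The antisense gene *8030451A03Rik* shares 2.26% of its exon bases and had 32 counts over all libraries.

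*Postn* encodes periostin, a matrix protein of fibroblasts and mural cells that supports collagen cross-linking, and is on the plus strand of chr3:54361109-54391037 (ENSMUSG00000027750). Normoxia libraries 1 to 4 had 39.1, 15.5, 13.0 and 14.4 CPM. Hyperoxia libraries 1 to 4 had 60.1, 89.7, 32.3 and 59.7 CPM. The groups overlapped in 1 place, since normoxia 1 lay above hyperoxia 3. The log2 fold change was 1.57 (SE 0.372, adjusted p = 0.00751) with all libraries. It ran from 1.31 (without hyperoxia 2, adjusted p = 0.0249) to 2.08 (without normoxia 1) when 1 library was left out, and was 1.78 without hyperoxia 3. Mural and smooth muscle markers summed to 47.9 CPM in normoxia 1 and 23.5 to 27.6 in the other normoxia libraries. In hyperoxia they summed to 45.4 in library 3 and 73.7 to 106.6 in the others. Fibroblast markers summed to 234.8 CPM in normoxia 1, 120.3 to 152.4 in the other normoxia libraries, 180.2 in hyperoxia 3 and 349.7 to 432.7 in the other hyperoxia libraries. In both lists normoxia 1 lay above hyperoxia 3, as it did for *Postn*, and their part in the result was not tested. The order of hyperoxia libraries of *Postn* (2, 1, 4, 3) was that of the fibroblast sum. *Thbs3* had this order too, while the AT1 sum had 1, 2, 4, 3. In normoxia the order was 1, 2, 4, 3 for *Postn* and 1, 3, 2, 4 for the fibroblast sum. The hyperoxia order of *Tnc* was that of the mural sum (2, 4, 1, 3) and not that of the fibroblast sum. Unlike both sums, *Tnc* was higher in hyperoxia 3 (29.2 CPM) than in normoxia 1 (15.9 CPM). These orders were also untested.

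*Spp1* encodes osteopontin, which binds integrins and CD44, and is on the plus strand of chr5:104435118-104441050 (ENSMUSG00000029304). It was a low gene with a large and uneven rise. Normoxia libraries 1 to 4 had 0.857, 0.455, 0.336 and 0.110 CPM, from 14, 8, 6 and 2 counts. Hyperoxia libraries 1 to 4 had 3.88, 1.53, 0.572 and 2.33 CPM, from 68, 27, 10 and 42 counts. Hyperoxia 3 lay below normoxia 1, so the groups overlapped. The log2 fold change was 2.25 (SE 0.612, adjusted p = 0.0153) and ran from 1.76 to 2.77 when 1 library was left out. Summed macrophage and monocyte markers were 168.2 to 325.1 CPM in normoxia, 218.7 in hyperoxia 3 and 368.6 to 504.6 in the other hyperoxia libraries, with 3 of 7 markers past the threshold and higher and 1 lower. Most of the rise in this sum was that of *Lyz2*, from 77.3 to 225.0 CPM, while *Ptprc* was at 38.4 and 38.3, *Csf1r* at 40.2 and 36.1 and *Cd68* at 40.8 and 25.7. These 4 markers were named after their values were seen. Summed pan-epithelial markers were 5.14 to 12.4 CPM in normoxia, 23.9 in hyperoxia 3 and 70.2 to 80.6 in the others. Their part in the rise of *Spp1* was not tested. *Gm42793* shares 18.75% of the *Spp1* exon bases on the same strand and had 2 counts in all.

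*Vtn* encodes vitronectin, an adhesive plasma protein made mainly by the liver. It had 2 to 8 counts in normoxia libraries and 6 to 11 in hyperoxia libraries. A difference was not detected (two-sided exact permutation p = 0.114).

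**Figure D2:**
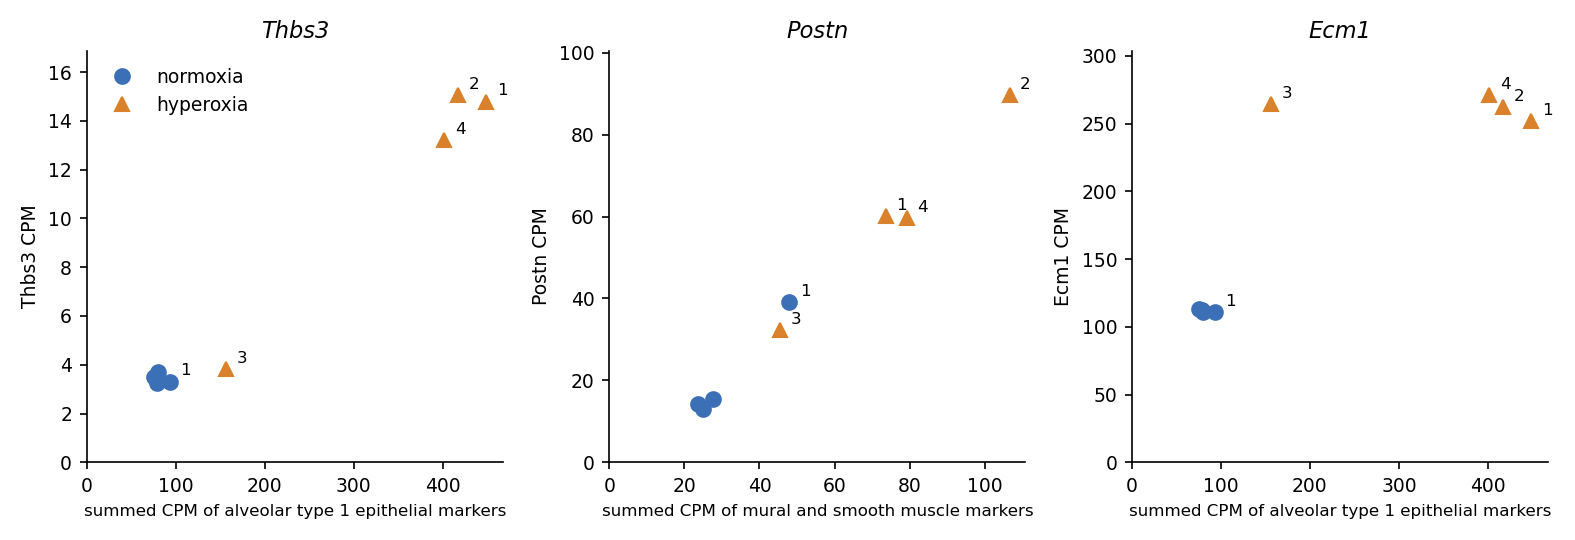
CPM of *Thbs3*, *Postn* and *Ecm1* against the summed CPM of a marker list in the same library, with circles for normoxia and triangles for hyperoxia, numbered by library (in normoxia only library 1 is numbered). *Thbs3* and AT1 markers are both low in hyperoxia 3, *Postn* and mural markers put normoxia 1 beside hyperoxia 3, and *Ecm1* is at 264.2 CPM in hyperoxia 3 where AT1 markers are at 156.8. Other lists that are not drawn, such as AT2, fibroblast and aerocyte capillary markers, are also lowest of the hyperoxia group in hyperoxia 3.

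*Ecm1* and the 5 called members differed in how much of the rise hyperoxia 3 showed. For each gene, the rise of hyperoxia 3 over the normoxia mean was expressed as a percentage of the mean rise of hyperoxia 1, 2 and 4. It was 102% for *Ecm1*, 71.2% for *Thbs1*, 43.4% for *Tnc*, 23.9% for *Postn*, 6.20% for *Spp1* and 3.69% for *Thbs3*. The value of *Ecm1* restates the even rise it was chosen for. *Thbs3* and *Spp1* showed hardly any of their rise in that library. Over the 875 genes called higher, the median was 61.7% and the middle 50% of genes ran from 27.1 to 89.9%. *Postn*, *Spp1* and *Thbs3* belonged to the 28.6% of these genes under 30%. Summed marker levels gave 25.3% for AT2 cells, 21.9% for AT1 cells, 26.0% for mural cells, 8.87% for fibroblasts and -3.86% for macrophages. *Thbs1* and *Tnc* lay above the sums of these 5 lists of other lung cells. Single markers spread widely around a sum. The 7 tested mural markers gave 0.0936% (*Pdgfrb*), 15.7% (*Notch3*), 27.6% (*Cspg4*), 40.8% (*Des*), 48.7% (*Myh11*), 49.3% (*Acta2*) and 132% (*Tagln*). The value of *Tnc* lay within that spread, as did that of *Thbs1*. These markers were named after their values were seen. *Postn* lay above the fibroblast list and between the AT1 and AT2 lists, and *Spp1* and *Thbs3* lay above the macrophage list and below the other 4. Among EC lists, aerocyte capillary markers gave 75.9% and lymphatic markers 125%. Whether the RNA of these members came from other lung cells was not tested.

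**Figure D3:**
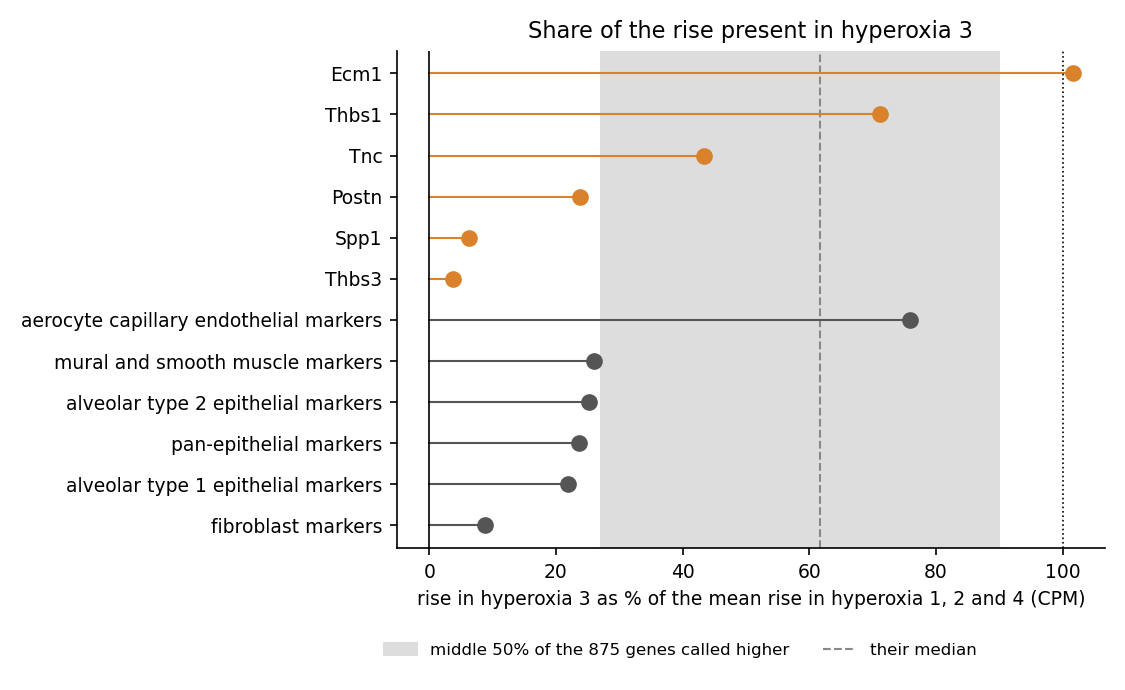
Rise over the normoxia mean in hyperoxia 3, as a percentage of the mean rise in hyperoxia 1, 2 and 4, for *Ecm1* and the 5 called members (orange) and summed marker lists (grey). The band and dashed line give the middle 50% and the median (61.7%) of the 875 genes called higher, and the dotted line marks an equal rise. *Ecm1* is at 102% and *Thbs3* at 3.69%.

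The order of levels per length was nearly the same in both groups. Mean FPKM in normoxia was 44.1 for *Ecm1* and 9.04 for *Thbs1*, followed by *Postn* (2.34), *Tnc* (1.48), *Thbs3* (0.706), *Thbs2* (0.432) and *Spp1* (0.265). *Thbs4*, *Vtn* and *Comp* were lowest, at 0.169, 0.127 and 0.121 FPKM. In hyperoxia *Ecm1* was at 103.5 FPKM and *Thbs1* at 18.8, followed by *Postn* (6.91), *Tnc* (5.95), *Thbs3* (2.42), *Spp1* (1.25) and *Thbs2* (0.620). *Spp1* and *Thbs2* changed places, as did *Vtn* and *Thbs4*. In normoxia the ranges overlapped for *Postn* and *Tnc* and for each step from *Thbs2* down, and in hyperoxia for *Postn* and *Tnc*, *Thbs3* and *Spp1*, *Spp1* and *Thbs2*, *Vtn* and *Thbs4*, and *Thbs4* and *Comp*.

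The receptors of the thrombospondins moved in both directions. Of 13 receptor and partner genes, all tested, 10 were past the adjusted p and higher, 2 were lower and 1 was not past it. Their median log2 fold change was 0.85. Over all genes tested, 18.5% were past the adjusted p and higher and 17.1% past it and lower. The list was chosen with results known, so its counts are a description. *Cd36*, the scavenger receptor that mediates the antiangiogenic action of thrombospondin-1, fell from 1773 ± 77.8 to 1164 ± 46.3 CPM (SD, n = 4, log2 fold change -0.61, adjusted p = 7.22e-06). *Cd47*, the other main thrombospondin-1 receptor of ECs, was the other one lower, at 175.5 ± 5.08 and 157.7 ± 8.42 CPM (SD, n = 4, adjusted p = 0.03), a log2 fold change of -0.15. The heparan sulfate proteoglycan *Sdc4* rose from 28.6 ± 1.74 to 69.5 ± 4.19 CPM (SD, n = 4, log2 fold change 1.28, adjusted p = 2.78e-07). The other 3 called higher were the syndecan *Sdc1* and the endocytic receptors *Lrp1* and *Lrp8*, at log2 fold changes of 1.55, 1.15 and 1.55. Hyperoxia 3 showed 27.7, 17.3 and 114% of their rises. *Lrp8* was a low gene, with 0.345 CPM in normoxia and 96 counts over all libraries. *Itgb1*, the most abundant integrin chain of the list, rose by 0.31 on the log2 scale, and *Calr*, the calcium-binding chaperone calreticulin, was at 571.9 and 574.6 CPM (adjusted p = 0.94). *Cd47* here, and *Itgav*, *Itgb3*, *Plaur* and *Cd44* among the next genes, were named after their values were seen.

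Among 18 tested of 21 receptors and partners of osteopontin, vitronectin, periostin and tenascin-C, 14 were past the adjusted p and higher and 1 lower. Of these 5 were called, and the median was 0.68. Over all genes tested, 18.5% were past the adjusted p and higher, and 5.62% were called higher. The urokinase gene *Plau* rose from 10.4 to 28.9 CPM (1.48, adjusted p = 4.64e-06), and its receptor *Plaur*, which also binds vitronectin, from 124.3 to 231.8 CPM (0.90, adjusted p = 1.42e-05). *Fn1* (fibronectin) rose by 1.06 on the log2 scale. The integrin chains *Itgav* and *Itgb3*, which together bind osteopontin and vitronectin, rose by 0.35 and 0.85. *Cd44*, another osteopontin receptor, was at 63.8 CPM in normoxia and 59.4 in hyperoxia (log2 fold change -0.10, adjusted p = 0.457). *Itgb6*, an epithelial integrin chain, rose from 0.595 CPM with a log2 fold change of 3.43 (adjusted p = 0.000217). *Egfr* rose from 0.506 CPM with a log2 fold change of 2.41 (adjusted p = 0.00118), so both were low in normoxia. Both showed about the same part of the rise in hyperoxia 3, 23.6%, while *Plau* showed 93.1%. *Itga5*, the fibronectin receptor chain, was the one lower (-0.20, adjusted p = 0.0234).

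Binding partners of *Ecm1* were mostly higher too, with 4 of 5 past the adjusted p, all higher, and a median of 1.06. Over all genes tested, 18.5% were past the adjusted p and higher. These 5 genes were also chosen with results known. *Hspg2*, which encodes the basement membrane proteoglycan perlecan, rose from 517.5 ± 33.1 to 937.0 ± 86.3 CPM (SD, n = 4, log2 fold change 0.86, adjusted p = 8.79e-06), with 96.3% of the rise in hyperoxia 3. The fibulin genes *Fbln1* and *Efemp1* rose by 1.20 and 1.52 on the log2 scale from 1.83 and 0.664 CPM, and hyperoxia 3 showed 39.0 and 1.39% of the rises. *Mmp9* was at 2.91 ± 1.95 and 3.80 ± 3.20 CPM (SD, n = 4, adjusted p = 0.643).

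The enzymes that glycosylate thrombospondin repeats changed little. *Pofut2*, the fucosyltransferase, and *B3glct*, which extends its fucose, were higher by 0.14 (adjusted p = 0.036) and 0.27 (adjusted p = 0.0369), and *Dpy19l1* and *Dpy19l3*, the C-mannosyltransferases, had -0.03 and -0.06 (adjusted p = 0.66 and 0.583). Without hyperoxia 3, *B3glct* was no longer past the threshold (adjusted p = 0.0908).

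Of 25 other matricellular and matrix adaptor genes, 16 were tested, 11 were past the adjusted p and higher and 1 lower, with 4 called and a median of 0.62. Among the CCN genes, *Ctgf* (CCN2) rose from 64.1 ± 8.95 to 227.1 ± 63.8 CPM (SD, n = 4, log2 fold change 1.82, adjusted p = 2.06e-05) and *Cyr61* (CCN1) by 0.31 (adjusted p = 0.0212). The groups overlapped for *Cyr61*, and without hyperoxia 3 it was not past the threshold (0.27, adjusted p = 0.0523). *Wisp1* (CCN4) rose by 1.11 from 2.27 CPM, with 5.48% of the rise in hyperoxia 3. *Fbln5*, which encodes an elastic fibre protein, rose from 369.3 to 586.8 CPM (0.67, adjusted p = 0.00114), and *Fbln2* was at 548.4 and 463.3 CPM (adjusted p = 0.164). *Matn4* (matrilin-4) went from 0.929 ± 0.425 to 9.33 ± 4.30 CPM (SD, n = 4, 3.33, adjusted p = 0.000274) and *Spon2* by 1.52, with 18.9 and 25.2% of those rises in hyperoxia 3. Over the 5 lists, 41 of the 52 genes tested were past the adjusted p, 37 of them higher, and 15 were called, all higher. Over all genes tested 35.6% were past it, 18.5% were past it and higher, and 5.62% were called higher. The lists were chosen with results known, so these counts are a description. Without hyperoxia 3, 39 of 53 were past it and 16 called, and without normoxia 1 the numbers were 37 and 18.

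**Figure D4:**
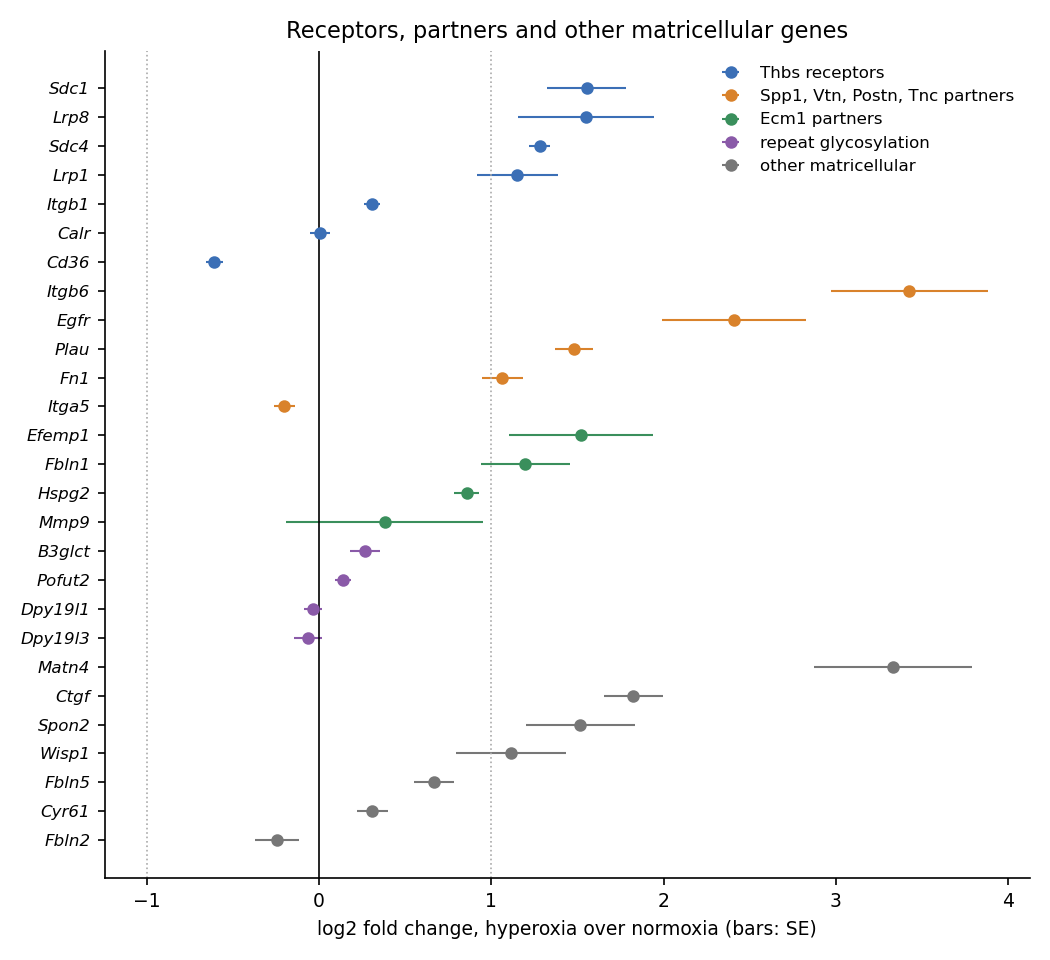
Log2 fold changes (hyperoxia over normoxia, bars give the SE) of the named receptors, partners and other matricellular genes, coloured by list, with each gene under the first list that holds it. Dotted lines mark a log2 fold change of 1 in either direction. *Itgb6* (3.43), *Matn4* (3.33) and *Egfr* (2.41) lie farthest to the right, and *Cd36* (-0.61) farthest to the left.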

How the data were processed

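Bulk RNA-seq libraries of bead-isolated lung ECs were compared between 4 normoxia and 4 hyperoxia samples, grouped by their titles. The authors deposited whole-number gene counts and FPKM for the same 54532 genes, and the submitters' processing notes name HISAT2 2.0.5, featureCounts 1.5.0-p3 and build mm10. The use of strand and of reads that match several genes was not given in the sources used here, so reads of overlapping genes cannot be assigned with certainty. All 10 members had the coordinates of GENCODE M21.

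Counts were tested with edgeR 4.0.16 in R 4.3.3 (quasi-likelihood test, TMM, filterByExpr, group as the only term, Benjamini-Hochberg adjustment over 15564 genes). CPM used TMM-scaled library sizes. SEs follow from the F statistic. For summed markers and untested genes, an exact permutation test (two-sided, 70 assignments) was used. The deposited FPKM served to compare levels between genes. On simulated counts of this comparison, over 15327 genes, the test found 74 of 100 genes changed 2-fold, 95 of 100 changed 4-fold and 13 unchanged genes. Only 200 genes were changed in the simulation, while 35.6% of genes were past the adjusted p in the data. The rates therefore do not carry over to this comparison. Alternatives were other scalings and filters, DESeq2 1.42.0, limma 3.58.1, a block and leaving out each library.

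The members and lists were chosen with earlier results of these data known. Named genes were the members, and from each partner list those called, the 3 most abundant and the 4 with the largest changes past the adjusted p. Also named were genes whose exons overlap a member, the 3 genes most like *Ecm1* and marker genes without a count in a whole group. The 2 most abundant genes of each marker list also met the rule and are given only within the sums. A gene of the partner lists that met the rule is not reported here on its own.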

Additional observations from a re-analysis of the deposited data

Results flagged for a closer look

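In 4 of 48 groups of 4 libraries, 1 library lay far from the other 3, by a gap above Dixon's critical share of the whole range. Chance alone gives about 2.4 such groups in 48, or 1 in 20. *Thbs3* was at 3.84 CPM in hyperoxia 3, with a gap of 0.834 of the range. *Postn* was at 39.1 CPM in normoxia 1, with a gap of 0.904. The summed AT1 markers were at 156.8 CPM in hyperoxia 3 (gap 0.838), and the summed mural and smooth muscle markers at 47.9 CPM in normoxia 1 (gap 0.833). The low library of *Thbs3* was thus also that of the AT1 markers, and the high library of *Postn* that of the mural markers. Neither match was particular to 1 list. Hyperoxia 3 was also the lowest of its group for the AT2, pan-epithelial, fibroblast, mural, macrophage, mesothelial and platelet sums. The same held for an EC list, the aerocyte capillary sum, at 2200 CPM against 2433 to 2627 in the other hyperoxia libraries. Normoxia 1 was also the highest of its group for the AT1, AT2, pan-epithelial, fibroblast and mesothelial sums. It was the highest for the venous and lymphatic sums of ECs as well. The part of these markers in either result was not tested.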

How the results depend on the processing

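The number of genes called was 1087. It was 330 by limma on log2(FPKM + 1), a scale that shrinks low genes, and 2132 at a 1.5-fold threshold. *Ecm1* gets no test and is left out of the member results here. On that log2(FPKM + 1) scale *Postn* and *Tnc* were past both thresholds. *Thbs1*, *Thbs3* and *Spp1* were past the adjusted p alone. Leaving out 1 library at a time gave 1011 to 1287 genes called and 4526 to 5445 past the adjusted p. The 5 called members stayed past the adjusted p each time. *Thbs1* fell under the fold threshold without normoxia 4 or without hyperoxia 1. *Thbs2* was past the adjusted p without normoxia 3 or without hyperoxia 3. Among the 8 tested members, *Thbs4* was the one that changed sign, to 0.15 without hyperoxia 1 and 0.0167 without hyperoxia 2, within a range of -0.55 to 0.15. The other scalings moved the median of all genes by less than 0.1 on the log2 scale, to -0.03 with library totals only. Same-numbered libraries of both groups correlated at 0.120, 0.0362, -0.125 and -0.140 in their deviations from the group means, so the numbers were not taken as pairs. With the replicate number as a block, 1057 genes were called and 4792 were past the adjusted p. The same 5 members other than *Ecm1* were called, and 38 partner genes were past the adjusted p with 15 called. That block changed no member's call. The alternatives on partner genes were chosen after seeing the data. *Thbs4*, *Comp*, *Vtn* and *Spp1* rest on 51 to 177 counts over all 8 libraries, which limits what can be said of them.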
